A study of Bos taurus with 48 samples.

Results

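The 4 genes described here encode membrane proteins that move urea, water, ammonium and bicarbonate: SLC14A1 (ENSBTAG00000019870), AQP1 (ENSBTAG00000000745), RHCG (ENSBTAG00000005471) and SLC4A5 (ENSBTAG00000004884). They were chosen by identifier for what they transport, and they are 4 of the 25669 genes in the count table. All 4 had already been singled out on these same libraries, SLC14A1 and SLC4A5 as higher and AQP1 as lower in weaned than in control calves on d 1, AQP1 also as higher in control calves on d 1 than on d 0, and RHCG as lower in weaned calves on d 2 than on d 0. In those gene and day pairs the direction was fixed by the choice, so their values are given as a description and are not independent evidence. The same holds for other comparisons that reuse the libraries of these contrasts.

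The study asked how circulating leukocytes of beef calves respond to weaning at the time of housing. Poly(A) RNA of total leukocytes, collected from jugular blood after lysis of the red cells, was sequenced as short single reads from 12 calves on 4 days, giving 48 libraries in 8 groups of 6. From d 0, 6 calves lost access to their dams and shared pens with calves treated likewise (weaned), whereas 6 stayed with their dams in the pens (control). All were spring-born, intact males of Continental (Simmental) breeding that had grazed with their dams and had been vaccinated against respiratory viruses some weeks earlier, so that housing, vaccination and the silage and concentrate offered were common to both treatments, whereas the dam, and with her suckling, was left only to the control calves. The d 0 sample was drawn before housing, when no calf had yet been weaned, and the same calves were sampled again on d 1, d 2 and d 7. The deposited counts summed to between 1662995 and 4256011 per library, with a median of 3600161.

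Urea crosses cell membranes slowly unless a channel such as the SLC14A1 product is present, and in mammals this protein is best known from red cells and from the vessels of the renal medulla, where it also carries the Kidd blood group. AQP1 is the water channel of red cells, capillary endothelium and the renal proximal tubule, and RHCG, a relative of the Rh blood group proteins, passes ammonia and ammonium across epithelia such as the renal collecting duct. SLC4A5 couples sodium to bicarbonate and thereby takes part in the control of intracellular pH, a task that leukocytes share with epithelia.

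Each of the 4 genes was sparsely covered. SLC14A1 collected 397 counts over the 48 libraries, with 1 to 31 per library and a median of 6, and it was at 0 in 0 libraries. SLC4A5 collected 264 counts, 1 to 16 per library with a median of 4.5, and was also at 0 in 0 libraries. RHCG collected 176 counts, 0 to 18 per library with a median of 2, and was at 0 in 9 libraries. AQP1 was the thinnest, with 56 counts in all, 0 to 10 per library and 24 libraries at 0. A count of 0 allows up to 3 counts, which corresponded to 0.705 CPM (counts-per-million) in the deepest and 1.80 CPM in the shallowest library. At or under that floor of 3 counts per library lay 13 libraries for SLC14A1, 20 for SLC4A5, 35 for RHCG and 43 for AQP1. Floors and intervals cover counting error only. Gene lengths were not used, so the CPM of different genes are not compared with each other.

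The labels of calf and day were checked against the libraries before any comparison. On the 500 genes that best separated calves, libraries were compared with each calf of their treatment, as its mean over the other 3 days. By this measure 46 of the 48 libraries were most similar to their own calf. Because these genes were picked for separating the labelled calves, this agreement is in part fixed by the choice. The exceptions were the d 7 libraries labelled as weaned calves 1758 and 1770, each of which was closest to the other calf (r = 0.54 for the first, against 0.27 with its own calf, and r = 0.60 for the second, against 0.17). Over all genes, which were not picked for separating calves, both were closest to their own calf, but only 38 of the 48 libraries were, and 10 were closest to another calf. The fitted d 7 differences of SLC14A1, RHCG and SLC4A5 between treatments and within weaned calves are also given without calves 1758 and 1770, and other d 7 values include these calves unless stated. The libraries of 6 calves each ran on a single flowcell and those of the other 6 on 2, so that calf and flowcell overlap in part. The libraries that ran apart from the other 3 of their calf, 1755 on d 7, 1763 on d 0, 1789 on d 7 and 1809 on d 0, were each closest to their own calf on the 500 genes, with r of 0.59, 0.51, 0.87 and 0.90. Over all genes 1755 on d 7 was closest to calf 1802 and 1763 on d 0 to calf 1755, with r of −0.08 and −0.06 with their own calf. The libraries of 1789 on d 7 and 1809 on d 0 were again closest to their own calf (0.66 and 0.79).

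Of the 64 pairings of the 4 genes with the 16 comparisons of treatment or day, 61 had at least 10 counts and were tested, and 3 pairings, all of AQP1, had fewer. A gene was called when edgeR's quasi-likelihood F-test, adjusted by Benjamini-Hochberg over all genes tested, gave an adjusted p under 0.05 together with at least a 2-fold change. Of the 61 tests edgeR called 0 and DESeq2 also called 0, and in edgeR 10 had an unadjusted p under 0.05, 5 of them for AQP1. The 10 comparisons between treatments or between days within a treatment share libraries, since every later day is set against the same d 0 and each weaned group also enters both kinds, so that their values are not independent of one another.

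Between weaned and control calves edgeR called 0 of 4 of these genes on d 0, d 1 and d 2, and 0 of 3 on d 7, where the share of all tested genes called was also 0%. DESeq2 called 0 genes of the whole table on d 0, d 1 and d 2 and 26 on d 7, none of them among the 4. With an unadjusted p under 0.05 there were 2 of 4 on d 0 against 6.23% of all genes tested, 2 of 4 on d 1 against 3.01%, 0 of 4 on d 2 against 3.37%, and 0 of 3 on d 7 against 25.5%. The count on d 1 includes genes selected in that contrast, and nothing is read from it.

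Among weaned calves, edgeR called 0 of 4 on d 1, d 2 and d 7 relative to d 0, with 0% of all genes called on each day. Calf was not a block in these fits or in those of control calves, so the pairing of days within a calf was not used. An unadjusted p under 0.05 was given to 0 of 4 on d 1 (10.4% of all genes), 1 of 4 on d 2 (2.11%) and 1 of 4 on d 7 (2.65%), and DESeq2 called 1, 0 and 1 genes of the whole table on these days. Among control calves, edgeR called 0 of 4 on d 1 and 0 of 3 on d 2, with 0% of all genes called, and 0 of 3 on d 7, when 3.73% of all genes were called. Here the unadjusted p was under 0.05 for 1 of 4 on d 1 (0.768% of all genes), 0 of 3 on d 2 (5.09%) and 0 of 3 on d 7 (40.1%), and DESeq2 called 0, 0 and 617 genes of the whole table. The gene counted on d 2 in weaned calves was RHCG, and that on d 1 in control calves was AQP1. Each had been selected in that same contrast, and nothing is read from these counts.

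The treatment by day interaction asks whether the change from d 0 differed between treatments, with calf as a block. For it edgeR called 0 of 4 on each day, with 0% of all genes called, and 2 of 4 had an unadjusted p under 0.05 on d 1 (22.3% of all genes), 0 of 4 on d 2 (7.20%) and 1 of 4 on d 7 (35.8%). DESeq2 called 5, 0 and 923 genes of the whole table on d 1, d 2 and d 7. For the change from d 0 averaged over both treatments, edgeR called 0 of 4 on each day, against 0% of all genes on d 1 and d 2 and 0.00680% on d 7. Under the unadjusted threshold these were 0 of 4 on d 1 (2.41% of all genes), 0 of 4 on d 2 (2.02%) and 0 of 4 on d 7 (4.06%), and DESeq2 called 0, 1 and 4 genes of the whole table.

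Exact 2-sided permutation tests of the mean CPM were run on the same 64 pairings, and 9 of them gave p under 0.05. Of these, 2 were in contrasts that had served to select the genes, and the other 7 reuse libraries of those contrasts, so that nothing is read from them and their p-values are not given. With 6 calves in each treatment there are 924 ways of assigning the treatments and the smallest p is 0.00216, and with 6 calves measured on 2 days there are 64 sign changes and the smallest p is 0.0312. These permutation p-values are unadjusted.

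**Figure D1:**
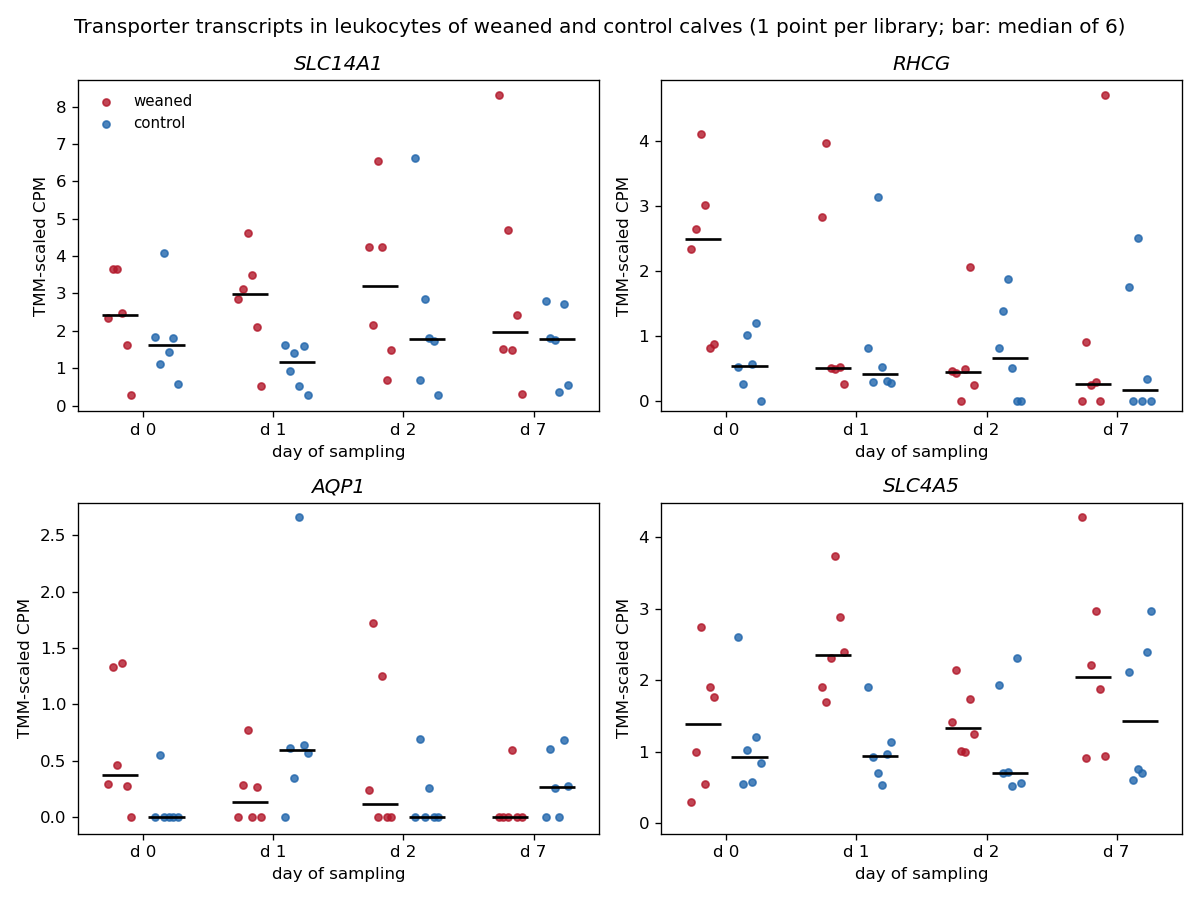
Level of the 4 transporter genes, in CPM on the vertical axis, by day on the horizontal axis. Each point is 1 library, the bar is the median of the 6 libraries of a group, and weaned and control calves are drawn side by side. RHCG on d 0 shows 4 of 6 weaned calves above every control calf, and 24 of the 48 AQP1 points lie at 0 CPM.

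SLC14A1, the urea channel, was measured on d 0 at 0.293 CPM in the lowest, 2.41 in the median and 3.66 in the highest weaned calf, and at 0.564, 1.62 and 4.07 CPM in the control calves. On d 1 the lowest, median and highest values were 0.533, 2.98 and 4.63 CPM in weaned calves and 0.285, 1.16 and 1.63 CPM in control calves. The groups overlapped on d 0, whereas on d 1 all weaned calves except 1809 lay above the highest control calf. On d 2 the corresponding values were 0.691, 3.20 and 6.55 CPM in weaned calves and 0.279, 1.77 and 6.62 CPM in control calves. On d 7 they were 0.314, 1.97 and 8.31 CPM in weaned calves and 0.350, 1.78 and 2.81 CPM in control calves. Weaned and control ranges overlapped again on both later days, and the highest value of all 48 libraries came from weaned calf 1758 on d 7, one of the libraries that resembled another calf.

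On d 1, the contrast in which SLC14A1 had been selected, it was 1.36 higher in weaned calves on the log2 scale (SE 0.49, edgeR adjusted p = 0.959), with 5 of 6 weaned calves above every control calf. On the other days the weaned calves were higher by 0.43 on d 0, 0.43 on d 2 and 0.93 (SE 0.61) on d 7 on the log2 scale, and the lowest edgeR adjusted p of these was 0.318, on d 7. The d 2 difference was 1.25 with the flowcell as a block and 1.07 without control calf 1755. Without weaned calves 1758 and 1770 the d 7 difference was 0.45. These differences were within the spread between calves.

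Within the control calves SLC14A1 was lower on d 1 than on d 0 in 6 of 6 animals, from a mean of 1.80 to 1.06 CPM, a log2 difference of −0.73 (SE 0.50). The edgeR adjusted p was 0.999. Among weaned calves the mean was 2.34 CPM on d 0 and 2.79 CPM on d 1, higher in 5 of 6 animals, with a log2 difference of 0.22. The difference between these 2 changes was 0.96 on the log2 scale (SE 0.42, edgeR adjusted p = 0.208). All 3 values were computed from d 1 libraries in which the gene had been selected and are no separate evidence. From d 0 to d 2 and d 7 the log2 differences were 0.48 and 0.42 in weaned calves, and the second became −0.02 without calves 1758 and 1770. In these comparisons weaned calves were higher than on d 0 in 4 of 6 on either day.

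SLC14A1 levels were called as different between calves, but not once flowcell was added as a further term. Over its 4 days, control calf 1803 stayed between 0.279 and 0.564 CPM, with a mean of 0.417 CPM and no library above 3 counts, and weaned calf 1809 had a mean of 0.660 CPM. On the flowcell that held all libraries of calf 1803, weaned calf 1773 had 0.691 CPM on d 2 and 2.42 CPM on d 7, and weaned calf 1809 had 0.293 CPM on d 0. At the other end weaned calf 1769 ranged from 3.66 to 6.55 CPM with a mean of 4.88 CPM, and weaned calf 1758 had a mean of 4.44 CPM. The ranges of calves 1803 and 1769 did not overlap, and both treatments held calves near the lower end. The highest control mean was 3.22 CPM, in calf 1755, which had 6.62 CPM on d 2 and 1.63 to 2.81 CPM on the other days. Of the 4 genes, 2 were called for differences between calves by edgeR at an adjusted p under 0.05, with treatment and day in the model, compared with 35.9% of all genes tested, and 3 of 4 had an unadjusted p under 0.05, compared with 50.4%. SLC14A1 gave the smallest adjusted p of the 4 genes, 0.000148, at rank 448 of 15532, and AQP1 gave 0.0356. For SLC14A1 the adjusted p lay between 5.92e-05 and 0.00406 when each calf was left out in turn, and it was 9.95e-05 without both calves 1758 and 1770. With flowcell as a further term, chosen after the data were seen, the adjusted p was 0.197 for SLC14A1 and 0.645 for AQP1, and 2468 of the 15532 genes were called in place of 5581. For AQP1 without that term it exceeded 0.05 without calf 1755, 1762, 1770 or 1809, and reached 0.104, and it was 0.133 with the d 7 libraries of calves 1758 and 1770 exchanged and 0.0616 without these calves.

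**Figure D2:**
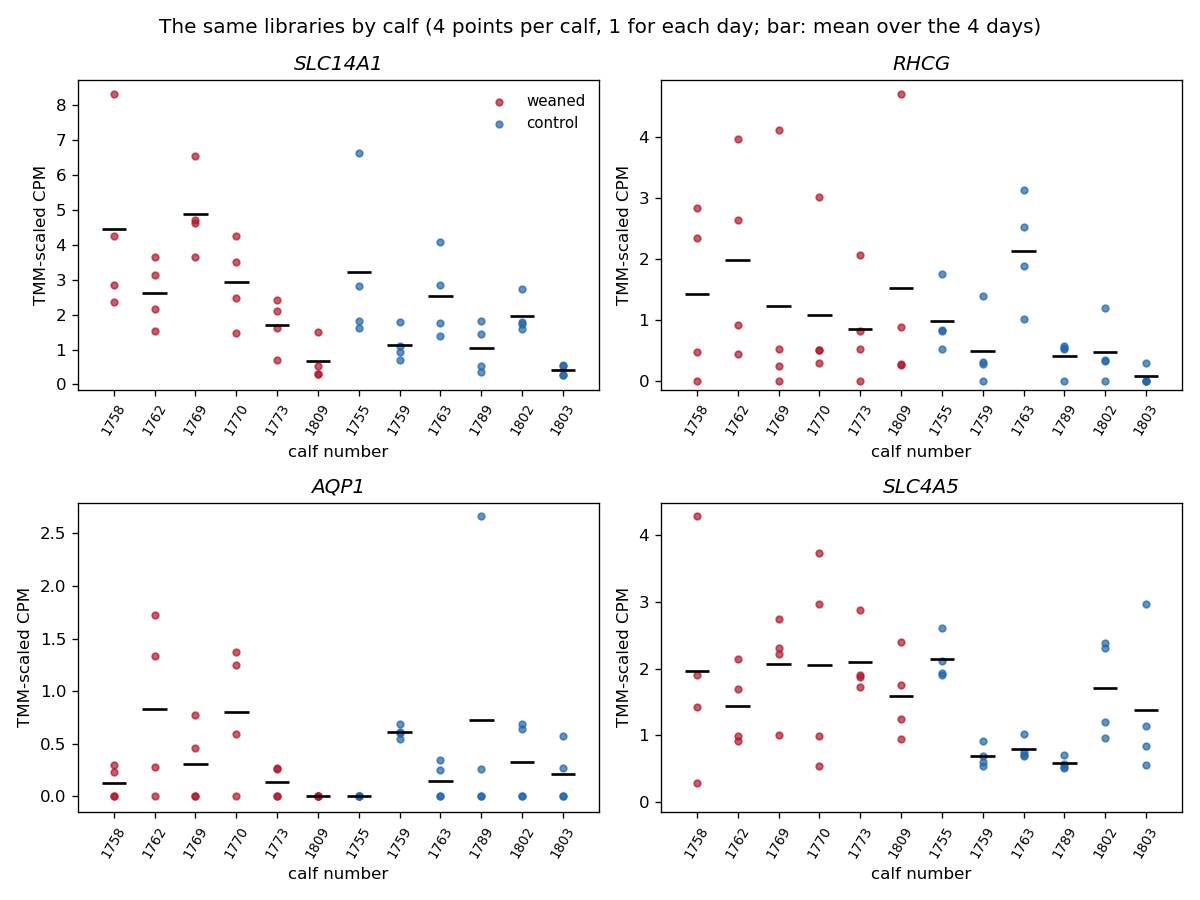
Level of the 4 transporter genes in each of the 12 calves, in CPM on the vertical axis. Each calf has 4 points, 1 for each day, and the bar is the mean of the 4 days. For SLC14A1 the mean runs from 0.417 CPM in control calf 1803 to 4.88 CPM in weaned calf 1769, and AQP1 is at 0 CPM on all days in control calf 1755 and weaned calf 1809.

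RHCG, the ammonium transporter, had higher values in the weaned group on d 0, before housing, but the difference was not called. It was measured at 0.815 CPM in the lowest, 2.5 in the median and 4.12 in the highest calf of the weaned group, and at 0, 0.549 and 1.20 CPM in the control group. Calves 1758, 1762, 1769 and 1770 of the weaned group lay above every control calf, calves 1773 and 1809 lay within the control range, and the 6 weaned calves together held 51 counts against 12 in the control calves. The log2 difference was 1.95 (SE 0.56, edgeR adjusted p = 0.624), and the mean was 2.31 CPM in weaned and 0.598 CPM in control calves. The weaned d 0 libraries also entered the contrast in which RHCG had been selected, so this difference is not independent of the selection. After scaling to library size the pooled counts stood in a ratio of 4.11 (exact conditional binomial 95% interval 2.16 to 8.46). The log2 difference remained between 1.68 and 2.26 when any calf was left out, and it was 1.64 with the flowcell as a block. Under edgeR's exact test with a common dispersion it was called at an adjusted p of 0.00828, while over the other settings and the calves left out the adjusted p reached 0.936. In bulk leukocyte RNA, a difference in the number of cells of a type cannot be told apart from a difference in RNA per cell.

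On the later days RHCG overlapped between the treatments. On d 1 the lowest, median and highest values were 0.267, 0.519 and 3.98 CPM in weaned calves and 0.285, 0.427 and 3.14 CPM in control calves, and the log2 difference was 0.68 (SE 0.76). On d 2 they were 0, 0.451 and 2.07 CPM in weaned calves and 0, 0.673 and 1.89 CPM in control calves, with a log2 difference of −0.33. On d 7 they were 0, 0.272 and 4.71 CPM in weaned calves and 0, 0.171 and 2.52 CPM in control calves, with a log2 difference of 0.20 (SE 1.03). Among weaned calves the high values came from calves 1762 and 1758 on d 1, the latter at 2.84 CPM, calf 1773 on d 2 and calf 1809 on d 7. Among control calves 1763 was highest on all 3 days, with calf 1759 next on d 2 (1.39 CPM) and calf 1755 next on d 7 (1.76 CPM). With the flowcell as a block the d 7 difference was −1.92, and without weaned calf 1809 it was −1.49. Without control calf 1763 it was 1.12, and without calves 1758 and 1770 it was 0.67. The d 1 difference was 0.10 with the flowcell as a block, 0.11 without weaned calf 1762 and 1.55 without control calf 1763, and that of d 2 was −1.09 without weaned calf 1773 and 0.34 without control calf 1763.

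From d 0 to d 2, the contrast in which RHCG had been selected, the weaned calves together went from 51 to 12 counts, a log2 difference of −1.95 (SE 0.63, edgeR adjusted p = 0.944), and the value was lower on d 2 in 5 of 6 calves. Calf 1773 alone was higher on d 2. Leaving out 1 calf gave differences between −2.90, without calf 1773, and −1.40, without calf 1769. Under edgeR's exact test with a common dispersion the change was called at an adjusted p of 0.0262, but under no other setting. The ratio of the pooled counts was 0.236 (95% interval 0.115 to 0.449). This contrast rests on the same 6 weaned d 0 libraries, 4 of which exceeded every control library of that day, and on d 2 the weaned calves held 12 counts against 15 in the control calves. In the same contrast the fibroblast markers COL1A1, COL1A2, COL3A1 and DCN were lower by log2 differences of −3.32, −3.44, −3.02 and −3.08 (SE 1.02, 1.01, 0.97 and 1.17), each at an edgeR adjusted p of 0.944 and an unadjusted p under 0.05. They too had been listed from this contrast, and their part in the result was not tested. From d 0 to d 1 and d 7 the log2 differences of RHCG in weaned calves were −0.72 and −1.24 (SE 0.79), lower in 4 of 6 and 5 of 6 animals. The d 1 difference was −1.24 without calf 1762 and −0.27 without calf 1769. With the flowcell as a block the d 7 difference was −3.15, without calf 1809 it was −3.09, and without calves 1758 and 1770 it was −0.63. In control calves, which held 12, 17, 15 and 16 counts on d 0, d 1, d 2 and d 7, the value moved both up and down between animals, and the log2 difference on d 1 of 0.54 became −0.11 with the flowcell as a block and −0.14 without calf 1763. The difference between the changes of weaned and control calves was −2.11 on d 2 (SE 1.12, edgeR adjusted p = 0.505), between −3.02 without calf 1773 and −1.62 without calf 1769, and again shares the d 0 and d 2 libraries.

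AQP1, the water channel, was at or under 3 counts in 43 of 48 libraries, and its fitted changes depend on the prior count, so that pooled counts are given in their place. On d 0 the lowest, median and highest values were 0, 0.375 and 1.37 CPM in weaned calves and 0, 0 and 0.548 CPM in control calves. A day after housing they were 0, 0.131 and 0.771 CPM in weaned calves and 0, 0.591 and 2.66 CPM in control calves. Control calf 1759 alone had counts among the control calves on d 0, and control calf 1789 held 10 of the 17 control counts on d 1. On d 2 the values were 0, 0.118 and 1.72 CPM in weaned calves and 0, 0 and 0.693 CPM in control calves. On d 7 they were 0, 0 and 0.594 CPM in weaned calves and 0, 0.261 and 0.684 CPM in control calves. The ranges of the treatments overlapped on all 4 days, and on d 7 weaned calf 1770 was the only weaned calf with a count.

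The pooled AQP1 counts were 13 in weaned and 2 in control calves on d 0, a ratio of 6.28 after scaling to library size (exact conditional binomial 95% interval 1.42 to 57.3). The edgeR adjusted p was 0.624, and the control d 0 libraries had also entered the selection. Both control counts came from calf 1759, and without it the control calves held 0 counts, so that no ratio of weaned to control on d 0, nor of control d 1 to d 0, can be formed without that calf. On d 1, the contrast in which the gene had been selected, the counts were 5 and 17, a ratio of 0.256 (95% interval 0.0738 to 0.722, edgeR adjusted p = 0.959). Without control calf 1789 that ratio was 0.505 (95% interval 0.126 to 1.85), and the interval then included equality. On d 2 the counts were 10 and 2, a ratio of 4.71 (95% interval 1 to 44.2). On d 7, with all 12 libraries at or under the floor and 2 counts against 5, no ratio is given.

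Over time the pooled AQP1 counts of weaned calves were 13, 5, 10 and 2 on d 0, d 1, d 2 and d 7. The ratio of d 7 to d 0 was 0.155 (95% interval 0.0170 to 0.685), with 5 of 6 calves lower and an exact permutation p of 0.0625, and without calves 1758 and 1770 the remaining weaned calves held 0 counts on d 7. In the same contrast the red cell genes ALAS2, an enzyme of heme synthesis, and HBB were lower by log2 differences of −1.74 (SE 0.56, edgeR adjusted p = 0.920) and −0.55 (SE 0.30). Without calves 1758 and 1770 these were −1.67 and −0.15. The fibroblast markers COL1A1, COL1A2, COL3A1 and DCN were lower by −3.08, −3.53, −2.18 and −3.74 (SE 1.10, 1.07, 0.98 and 1.26). The endothelial markers KDR and TEK were higher by 1.16 (SE 0.41) and 0.96 (SE 0.60). All of these except HBB and TEK had an unadjusted p under 0.05, each at an edgeR adjusted p of 0.920. The part of these cells in the result was not tested. In control calves the pooled AQP1 counts were 2, 17, 2 and 5, and the ratio of d 1 to d 0 was 8.76 (95% interval 2.08 to 78.1), with 5 of 6 calves higher. Without control calf 1789 that ratio was 3.69 (95% interval 0.703 to 36.4), and AQP1 had been selected in this contrast as well. In it KDR was lower by a log2 difference of −0.79 (SE 0.29, edgeR adjusted p = 0.999, unadjusted p under 0.05). TEK was 0.48 higher (SE 0.50), and the part of endothelial cells was not tested. On control d 2 and d 7 AQP1 was, as on control d 0, at or under the floor in every library, and the differences were not detectable at this depth. In the interaction the mean change from d 0 was −0.401 CPM in weaned and 0.715 CPM in control calves on d 1 (edgeR adjusted p = 0.200), and −0.522 and 0.210 CPM on d 7 (edgeR adjusted p = 0.0914, and 0.361 without calves 1758 and 1770). The control mean on d 1 includes calf 1789, which went from 0 to 2.66 CPM. Both interactions use the d 0 libraries, in which the pooled ratio of weaned to control calves was 6.28, and both reuse libraries of the selection, the first those of d 1 and both those of control d 0.

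By calf, AQP1 was at 0 on all 4 days in control calf 1755 and weaned calf 1809, and between 0.548 and 0.693 CPM on every day in control calf 1759. The most counts were in weaned calf 1770, with 12, and control calf 1789, with 11, of which 10 came from a single day.

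SLC4A5, the sodium bicarbonate cotransporter, was measured on d 0 at 0.294 CPM in the lowest, 1.38 in the median and 2.74 in the highest weaned calf, and at 0.548, 0.931 and 2.61 CPM in the control calves. After 1 day the lowest, median and highest values were 1.70, 2.36 and 3.74 CPM in weaned calves and 0.533, 0.941 and 1.91 CPM in control calves. The groups overlapped on d 0, and on d 1 they met only at control calf 1755, with 1.91 CPM, above the weaned calves 1758 at 1.90 and 1762 at 1.70 CPM. On d 2 the values were 0.999, 1.33 and 2.15 CPM in weaned calves and 0.519, 0.701 and 2.31 CPM in control calves. On d 7 they were 0.910, 2.05 and 4.29 CPM in weaned calves and 0.600, 1.43 and 2.97 CPM in control calves. The treatments overlapped again on both later days.

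On d 1, the contrast in which SLC4A5 had been selected, it was 1.22 higher in weaned calves on the log2 scale (SE 0.37, edgeR adjusted p = 0.959), with 4 of 6 weaned calves above every control calf. On d 0, d 2 and d 7 the log2 differences were 0.31, 0.27 and 0.43 (SE 0.50 on d 7), each within the spread between calves, and with the flowcell as a block that of d 2 was 1.09. The d 0 difference was −0.04 without weaned calf 1769 and 0.74 without control calf 1755. The d 7 difference was −0.13 without weaned calves 1758 and 1770, whose d 7 libraries held 4.29 and 2.97 CPM. Weaned calves had a mean of 1.37 CPM on d 0 and 2.49 CPM on d 1, higher in 5 of 6 animals, a log2 difference of 0.79 (SE 0.42). Control calves had means of 1.13 and 1.03 CPM on these days, a log2 difference of −0.14. The difference between these changes was 0.98 on the log2 scale (SE 0.58), and all 3 values reuse d 1 libraries of the selection. From d 0 to d 2 and d 7 the log2 differences in weaned calves were −0.02 and 0.64, with 3 of 6 calves higher on d 2. On d 7 only 2 of 6 were higher and 4 were lower (exact permutation p = 0.5), and the difference was −0.32 without calves 1758 and 1770.

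Between calves, SLC4A5 was lowest in control calves 1789, 1759 and 1763, with means over the 4 days of 0.582, 0.690 and 0.795 CPM and no library above 3 counts. The highest mean was 2.14 CPM, in control calf 1755, so the spread of the control calves covered that of the weaned calves, whose means ran from 1.44 to 2.10 CPM. The adjusted p of the differences between calves was 0.0963 in edgeR. Leaving out 1 calf gave between 0.0403 without calf 1758 and 0.349 without calf 1755, and it was 0.0185 without both calves 1758 and 1770 and 0.649 with flowcell as a further term. For RHCG the corresponding adjusted p was 0.179, between 0.07 without calf 1809 and 0.677 without calf 1763, with calf means from 0.0713 CPM in control calf 1803 to 2.14 CPM in control calf 1763.

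The means of the 12 calves were also compared between genes, giving 6 relations, of which SLC14A1 with SLC4A5 was the strongest over all 12 calves. Pearson's r was 0.56 (permutation p = 0.0630, 0.378 after Benjamini-Hochberg adjustment over the 6 relations) and Spearman's rho was 0.61 (permutation p = 0.0402). Without the 2 calves farthest from the median r was 0.44, and it was 0.46 among weaned and 0.52 among control calves. With 2 calves left out likewise, other pairs were stronger. These were AQP1 with SLC4A5 (−0.68), RHCG with SLC4A5 (0.58), AQP1 with RHCG (−0.53) and SLC14A1 with RHCG (0.50), while SLC14A1 with AQP1 was at 0.13. For RHCG with SLC4A5, r was 0.09 over all 12 calves, −0.91 among weaned and −0.12 among control calves, opposite in sign to 0.58 within either treatment. Among weaned and control calves in turn, r was −0.20 and −0.73 for AQP1 with SLC4A5 and 0.31 and −0.44 for AQP1 with RHCG. It was −0.05 and 0.69 for SLC14A1 with RHCG and 0.17 and −0.63 for SLC14A1 with AQP1. Calves were spread over 8 flowcells, with too few on each for a value within a flowcell. Over all 12 calves r lay between −0.35 and 0.45 in the other pairs.

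Over the 48 libraries, which include 4 from each calf and so are not independent, each gene was compared with 13731 genes of at least 48 counts by the correlation of log2(CPM + 1). The 3 most similar genes had r of 0.65, 0.61 and 0.60 for SLC14A1, 0.56, 0.48 and 0.48 for AQP1, 0.54, 0.52 and 0.52 for RHCG, and 0.65, 0.65 and 0.62 for SLC4A5, and none of them carried a symbol in the names used. Among the 577 genes that did carry one, a narrower search made after the values were seen, the most similar was CPB2, a carboxypeptidase that slows fibrinolysis, for SLC14A1 (r = 0.59). For SLC4A5 it was the bile acid transporter SLC10A1 (r = 0.58), for RHCG the beta-adrenergic receptor ADRB3 (r = 0.49) and for AQP1 the matrix protein THBS2 (r = 0.40). Symbols were available only for genes that had been listed as differentially expressed in these same libraries, so the named genes are a set selected on these data.

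Other genes of the same families could be followed only in part, because symbols were matched for 644 genes, all of them selected as above. Of the urea transporters 1 of 2 was identified, of the Rh ammonium transporters 1 of 5, of the SLC4 bicarbonate transporters 2 of 10, of the aquaporins 2 of 13 and of the SLC26 anion exchangers 2 of 10, while the carbonic anhydrases (0 of 15), the enzymes and transporters of urea and ammonia metabolism (0 of 12) and the SLC9 sodium-proton exchangers (0 of 9) had none. With so few identified, no statement is made about any of these families as a group. SLC4A1, the anion exchanger of red cells, and SLC26A3 were each at 0 in 38 libraries.

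AQP9, the glycerol- and urea-permeable aquaporin of leukocytes and liver, collected 689 counts and was detected in all 48 libraries. In control calves it was lower on d 7 than on d 0 by a log2 difference of −0.99 (SE 0.42), which did not pass the test (edgeR adjusted p = 0.0921), and on d 7 it was 1.02 higher in weaned than in control calves (SE 0.37, edgeR adjusted p = 0.159). Both contrasts had served to list the gene. Without weaned calves 1758 and 1770 the d 7 difference was 1.00 (SE 0.42, edgeR adjusted p = 0.573). It was called for differences between calves at an adjusted p of 0.0274, and at 0.0318 without these calves, but not with flowcell as a further term (0.134).

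SLC26A2, a sulfate and anion exchanger, collected 1701 counts and was the single family gene called in a comparison of treatment or day. In control calves its lowest, median and highest values were 4.61, 14.4 and 18.3 CPM on d 0 and 3.08, 5.20 and 8.38 CPM on d 7. The 2 ranges overlapped, and the gene fell by 1.13 on the log2 scale (SE 0.36, edgeR adjusted p = 0.0396). It had been listed from this same contrast, so the call is not independent evidence. The change from d 0 differed between weaned and control calves by 1.31 on d 1 (SE 0.43, edgeR adjusted p = 0.200) and by 1.32 on d 7 (SE 0.48, edgeR adjusted p = 0.0883), neither of which was called. Without weaned calves 1758 and 1770 the second was 0.92 (SE 0.41, edgeR adjusted p = 0.373). The control d 7 comparison depends on single animals, since 516 genes were called with all 6 control calves and 0 without calf 1755, 1759 or 1763. For SLC26A2 the adjusted p was 0.184, 0.115 and 0.0840 without these calves in turn, 0.0832 with the flowcell as a block and 0.0856 with all 48 libraries fitted together, and over all settings it lay between 0.000570 and 0.184. The gene was lower on d 7 under each of these settings.

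Of the marker lists of other cells, only that of fibroblasts was identified nearly in full (6 of 7, 85.7%). These 6 also carry a symbol because they had been listed as differentially expressed in these libraries, and their direction is not independent evidence. The most abundant of these was COL1A1, and DCN and LUM, which are more specific to connective tissue, were at 0 in 28 and 41 libraries. Their summed level on d 0 was 2.99 CPM in the lowest, 147 in the median and 331 in the highest weaned calf, and 4.65, 28.5 and 134 CPM in the control calves. On d 2 it was 0, 6.39 and 39.5 CPM in weaned calves and 0.576, 55.3 and 238 CPM in control calves. The collagen transcripts thus varied widely between libraries, and in the median they were higher in weaned calves on d 0 and lower in weaned calves on d 2. The summed level on d 1 was 0.8, 53 and 237 CPM in weaned and 0, 62.8 and 189 CPM in control calves. On d 7 it was 0.494, 8.14 and 51.3 CPM in weaned and 11.3, 30.0 and 241 CPM in control calves.

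RHCG and the summed fibroblast markers were compared on d 0 over the 12 calves on the log2(CPM + 1) scale. Pearson's r was 0.30 (permutation p = 0.345, adjusted p = 0.614 over 16 relations of 4 genes on 4 days) and Spearman's rho was 0.34 (permutation p = 0.278). It was 0.63 without the 2 calves farthest from the median, −0.05 within the weaned and 0.65 within the control calves. None of the 16 relations had an adjusted p under 0.05, the lowest being 0.0749. That value was reached by AQP1 on d 7, where all 12 libraries were at or under the floor and nothing is read from it, and by SLC4A5 on d 2, with r = −0.73 (permutation p = 0.00936) and rho = −0.76 (permutation p = 0.00637), and r = −0.74 without the 2 farthest calves. Within the treatments r was −0.01 in weaned and −0.96 in control calves, a difference that was not tested, and 4 of the 6 control libraries were at or under the floor. No flowcell held more than 2 calves of a day, too few for values within flowcells. The part of these cells in the levels of the 4 genes was not tested further.

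Of the red cell markers, the cells in which SLC14A1 and AQP1 are best known, 3 of 15 were identified, too few for a check, and their summed level is given only as measured. HBB was the most abundant and SLC4A1 was at 0 in 38 libraries. On d 0 the sum was 8.96, 13.6 and 20.1 CPM in the lowest, median and highest weaned calf and 4.71, 8.38 and 13 CPM in the control calves. On d 1 it was 6.81, 9.83 and 65.3 CPM in weaned and 2.18, 10.4 and 16.4 CPM in control calves. In the median it was thus higher in weaned calves on d 0, when ALAS2 was 1.29 higher on the log2 scale (SE 0.51, edgeR adjusted p = 0.624, unadjusted p under 0.05) and HBB 0.56 higher (SE 0.26). On d 1 the log2 differences were 1.34 (SE 0.78) and 0.71 (SE 0.56), although the median sum was lower in weaned calves. On that day calf 1769 held 65.3 CPM, and the other weaned calves lay between 6.81 and 12.5 CPM. On d 2 the sum was 4.95, 12.1 and 33 CPM in weaned and 6.63, 14.3 and 19 CPM in control calves, and on d 7 it was 4.56, 7.86 and 11.1 CPM in weaned and 5.97, 11.9 and 48.6 CPM in control calves. On d 7 HBB was lower in weaned calves by a log2 difference of −1.18 (SE 0.46, edgeR adjusted p = 0.161, unadjusted p under 0.05), or −0.87 without calves 1758 and 1770, and ALAS2 by −1.08 (SE 0.62). The median was lower in weaned calves on d 1, d 2 and d 7, the ranges of the treatments overlapped on all 4 days, and the part of residual red cells in the result was not tested. The highest value on d 1 was that of weaned calf 1769.

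The lists of endothelium, another site of AQP1, of platelets and of eosinophils were likewise too thinly identified for a check, with 2 of 7, 2 of 9 and 1 of 5 markers, and are given as measured. The endothelial sum, mostly KDR, was 3.23, 6.15 and 8.96 CPM in the lowest, median and highest weaned calf on d 0 and 4.32, 9.02 and 13.2 CPM in the control calves. On d 1 it was 4.54, 7.6 and 23.9 CPM in weaned and 4.85, 6.51 and 8.71 CPM in control calves, with weaned calves 1758 and 1773 above every control calf. KDR itself, a receptor for VEGF, was lower in weaned calves by a log2 difference of −0.73 on d 0 (SE 0.28, edgeR adjusted p = 0.624) and 0.98 higher on d 1 (SE 0.43, edgeR adjusted p = 0.959), and had an unadjusted p under 0.05 on both days. TEK, the other endothelial marker, differed less on these days, with log2 differences of 0.08 (SE 0.56) on d 0 and 0.26 (SE 0.47) on d 1. It was 1.37 higher on d 2 (SE 0.60) and 1.27 higher on d 7 (SE 0.54), both with an unadjusted p under 0.05. KDR was also higher on those later days, by 0.66 (SE 0.48) and 0.84 (SE 0.44), neither with an unadjusted p under 0.05. The platelet sum, mostly the chemokine PPBP, was 1.47, 3.68 and 5.95 CPM in weaned and 0.845, 3.2 and 5.75 CPM in control calves on d 0. On d 1 it was 0.498, 3.42 and 31.1 CPM in weaned and 1.09, 1.79 and 3.99 CPM in control calves, and calf 1769, also the highest in red cell markers, held the highest value. PPBP was 2.04 higher in weaned calves on d 1 (SE 0.87, edgeR adjusted p = 0.959), with an unadjusted p under 0.05. Its median and highest values were 1.78 and 29 CPM in weaned and 1.5 and 2.66 CPM in control calves. Apart from calf 1769, the weaned platelet sums of d 1 lay between 0.498 and 7.07 CPM. The PPBP difference was not tested without that calf. The study reported fewer platelets in the blood of weaned than of control calves on that day. It also reported a higher percentage of neutrophils and a lower percentage of lymphocytes in weaned calves at that time. Whether these leukocyte proportions contributed to the levels of SLC14A1 and SLC4A5 was not tested. GP5, the other platelet marker, was at 0 in 13 libraries. The endothelial and platelet differences of d 1 lie in the contrast in which SLC14A1 and SLC4A5 were higher in weaned calves. The part of these cells in the result was not tested. The eosinophil marker IL5RA was at 2.64, 6.83 and 13.3 CPM in weaned and 4.11, 10.4 and 47.1 CPM in control calves on d 0, and at 8.23, 12.9 and 33.2 CPM and 3.99, 11.5 and 32.4 CPM on d 1. It was lower in weaned calves by −1.18 on d 0 (SE 0.52, edgeR adjusted p = 0.624) and 0.15 higher on d 1 (SE 0.49). Within weaned calves it was higher than on d 0 by 1.07 on d 1 (SE 0.40) and 1.25 on d 2 (SE 0.58). All of these except the treatment difference on d 1 had an unadjusted p under 0.05. The part of eosinophils in the result was not tested. On d 2 and d 7 the treatments overlapped in all 3 sums.

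None of the markers of leukocytes as a whole, or of neutrophils, monocytes, T cells, B cells and NK cells, could be matched to a symbol, so the labelled cell type was not checked against the data.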

How the data were processed

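Leukocyte mRNA of 12 calves was measured on 4 days. The authors produced the deposited counts as follows: reads were processed with CASAVA 1.6 and FastQC 0.9.1 and aligned to the bovine genome with Bowtie 0.12.7, allowing no mismatch and dropping reads that aligned more than once, then 1 read was kept per position and reads were counted per Ensembl gene with HTSeq 0.4.6p2, and edgeR 1.6.12 was used for testing. Whether the counting used strand was not given in the sources used here. Keeping 1 read per position lowers the counts of abundant genes most.

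Here counts were analysed in R 4.3.3 with edgeR 4.0.16 (TMM scaling, quasi-likelihood F-test, Benjamini-Hochberg adjustment over all genes with at least 10 counts in the libraries fitted). A call needed an adjusted p under 0.05 and a 2-fold change, or only the adjusted p for differences between calves. SE is the absolute log2 change divided by the square root of F. Alternatives included DESeq2 1.42.0, RLE scaling, other filters, an exact test, blocks for calf or flowcell, and leaving out each calf. CPM used library totals scaled by TMM, and the floors of 3 counts used the totals as deposited. Permutation tests and exact intervals were computed with scipy 1.17.1, numpy 2.4.6 and pandas 2.3.3 under Python 3.11.15, and plots were drawn with matplotlib 3.10.9. Flowcells were taken from the lane list of the study.

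The genes named are the 4 transporters, the identified genes of family and marker lists, and the 3 genes most similar to each transporter. Members and lists were chosen with earlier results of these data known. Symbols came from ortholog pairs in the supplement of the study, which lists only genes that it found differentially expressed in these libraries, and covered 644 genes. The tests were tested on simulated data, in which 99% of 200 genes changed 4-fold were recovered in the comparison of treatments on d 1 and 97% in that of d 2 with d 0 in weaned calves. Recovery was 89.5% for the d 1 interaction. Whether changes would be recovered at counts as low as those of the 4 transporters was not tested. In all 120 pairs of libraries within a group the counts differed by more than sampling noise (chi-square per degree of freedom 2.43 to 46.2), so none was counted as a duplicate. Libraries of a calf are paired, because they come from the same animal. Their deviations from the group means correlated between d 0 and d 1, d 2 and d 7 with a mean r of 0.50, 0.34 and 0.22 in control calves and 0.47, 0.26 and 0.24 in weaned calves. The main edgeR fits of a day against d 0 within a treatment did not use this pairing, nor did their SE and adjusted p. Calf as a block was an alternative there. No column was left out.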

Additional observations from a re-analysis of the deposited data

Results flagged for a closer look

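In 10 of 32 groups of 6 libraries, the highest library lay far from the others, by a gap that exceeded Dixon's 95% limit relative to the whole range of the group. Chance marks about 1 in 20 groups in this way, and sparse counts with many values of 0 make such gaps easy to reach. For SLC14A1 it was control calf 1763 on d 0, at 4.07 CPM. For AQP1 these were weaned calf 1769 on d 1 (0.771 CPM), weaned calf 1770 on d 7 (0.594 CPM), control calf 1759 on d 0 (0.548 CPM) and d 2 (0.693 CPM), and control calf 1789 on d 1 (2.66 CPM). For RHCG they were weaned calf 1773 on d 2 (2.07 CPM), weaned calf 1809 on d 7 (4.71 CPM) and control calf 1763 on d 1 (3.14 CPM), and for SLC4A5 it was control calf 1755 on d 0 (2.61 CPM). Of the AQP1 values, only that of calf 1789 exceeded 3 counts.

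In 3 interactions the change from d 0 differed between treatments at an unadjusted p under 0.05. The log2 difference of the changes was, for SLC14A1 on d 1, 0.96 (edgeR adjusted p = 0.208). For AQP1 it was −3.98 on d 1 (edgeR adjusted p = 0.200) and −3.91 on d 7 (edgeR adjusted p = 0.0914, and −5.38 at 0.361 without weaned calves 1758 and 1770), all fitted values that depend on the prior count. All 3 reuse libraries of the contrasts in which these genes had been selected. None passed the adjusted threshold, and 22.3% of all genes tested on d 1 and 35.8% on d 7 had an unadjusted p under 0.05.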

How the results depend on the processing

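Over 982 alternative values of the 61 tested gene changes, 927 kept direction and side of the threshold, 53 changed sign and 2 were called. Those 2 were RHCG with edgeR's exact test and a common dispersion, at 1.97 between treatments on d 0 and −1.98 in weaned calves on d 2. Of the 61 changes, 38 never changed sign, and the largest that did was 0.64. Where a sign changed, the cause was not tested. With the flowcell as a block RHCG was −1.92 between treatments on d 7 and −0.11, −0.38 and −0.56 in control calves on d 1, d 2 and d 7. SLC4A5 in weaned calves on d 2 was 0.01 with RLE scaling, 0.01 with DESeq2, 0.27 with the flowcell block and 0.09 with calf as a replicate block. In control calves on d 2 it was −0.01 with all 48 libraries fitted together, −0.04 with the flowcell block and −0.03 with the replicate block. Without the replicate block it was −0.01 in the d 2 interaction and −0.01 over both treatments on d 2. Alternatives with calves 1758 and 1770 were chosen after seeing the data. Without both, SLC4A5 was −0.13 between treatments, −0.32 in weaned calves (−0.31 with the replicate block) and −0.80 in the interaction on d 7, and SLC14A1 was −0.02 in weaned calves (−0.02 with the block) and −0.10 over both treatments. Leaving out 1 calf changed signs within the ranges that follow, with the calves whose absence did so in brackets: between treatments SLC4A5 on d 0 −0.04 to 0.74 (calf 1769) and RHCG on d 2 −1.09 to 0.34 (1763) and d 7 −1.49 to 1.12 (1789, 1803, 1809). In weaned calves SLC14A1 on d 7 ran from −0.14 (1758) to 0.69 and SLC4A5 on d 2 from −0.24 to 0.40 (1769, 1773, 1809). In control calves RHCG ran from −0.14 to 1.02 on d 1, −0.15 to 0.91 on d 2 and −0.23 to 1.00 on d 7 (each 1763), SLC14A1 from −0.14 to 0.80 on d 2 (1755) and −0.30 to 0.24 on d 7 (1763, 1789), and SLC4A5 from −0.24 to 0.03 on d 1 (1755) and −0.31 to 0.23 on d 2 (1759, 1802). In the interaction SLC14A1 ran from −0.10 to 0.73 on d 2 (1763) and −0.04 to 0.70 on d 7 (1758), and SLC4A5 from −0.17 to 0.51 on d 2 (1758, 1762) and −0.34 to 0.50 on d 7 (1755, 1758, 1770). Over both treatments SLC14A1 ran from −0.20 to 0.02 on d 1 (1763) and −0.16 to 0.21 on d 7 (1758), AQP1 from −0.25 to 0.94 on d 1 (1789) and −0.35 to 0.06 on d 2 (1769), and SLC4A5 from −0.12 to 0.22 on d 2 (1758, 1762, 1770, 1802). Of 288 counts of called genes, 245 stayed within 1.5 times and 43 did not. The exact test called 68, 40, 75 and 865 genes between treatments on d 0, d 1, d 2 and d 7, 64, 62 and 38 in weaned calves on d 1, d 2 and d 7, and 18 in control calves on d 2. DESeq2 called 26 between treatments on d 7, 1 and 1 in weaned calves on d 1 and d 7, 5 and 923 in the interaction on d 1 and d 7, and 1 and 4 over both treatments on d 2 and d 7. Without a filter 625 genes were called in the d 7 interaction. The replicate block gave 2 calls in weaned calves on d 1 and its removal 0 over both treatments on d 7. In control calves on d 7 it gave 536 calls against 516, and it changed no call of the 4 genes. In control calves on d 7 the count was 1 with all 48 libraries and 11 with the flowcell block. Leaving out 1 calf gave 0 to 1137 calls between treatments on d 7 (1137 without 1809), 0 to 1086 in control calves on d 7 (0 without 1755, 1759 or 1763, 790 without 1802, 1086 without 1803), 0 to 1 in the d 1 interaction (1769), 0 to 2 and 0 to 5 over both treatments on d 2 and d 7 (2 and 5 without 1758, and 0 on d 7 without each of 1759, 1762, 1763, 1770, 1773, 1789, 1802, 1803 and 1809), and 3179 to 6235 for differences between calves (3179 without 1809). Over both treatments on d 7 there were 73 calls without calves 1758 and 1770 and 0 with their d 7 libraries exchanged, which left 3131 for differences between calves, and flowcell as a further term, also chosen after seeing the data, left 2468. Depth sets the floor of 3 counts per library, what changes could be detected at 56 to 397 counts per gene was not tested, and the lack of a call does not show that levels were equal. The genes were chosen on these data, and symbols were missing for most genes.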

Other observations

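Over all genes, control calves on d 7 differed most from d 0, with 63 genes called higher and 453 called lower by edgeR. The comparison had 516 calls with all 6 calves and between 0 and 1086 when 1 was left out. SLC26A2 was the single transporter of the lists among them, and it had been listed from this same contrast.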
